A study of Mus musculus with 35 samples.

Results

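Mfsd2a, 5 lysophospholipid acyltransferases (Lpcat1, Lpcat2, Lpcat3, Lpcat4 and Lpgat1) and 3 enzymes of cardiolipin synthesis (Pgs1, Ptpmt1 and Crls1) were followed in interscapular brown adipose tissue (iBAT) during cold exposure. These 9 genes were chosen by name out of the 55421 identifiers of the count table, with earlier results of these data known. Mfsd2a was chosen by its values at room temperature and after 6 hours in the cold. For Mfsd2a, those 2 groups are therefore described without a test. The gene lists used below were also chosen with earlier results known, so counts of called genes beside all genes are description only. The 35 libraries each came from the iBAT of 1 male C57BL/6J mouse of 9 to 10 weeks on standard chow. Controls (RT, 5 mice) stayed at the colony temperature of 24 °C, and 5 mice each were kept at 6 °C for 6 hours or for 1, 2, 3, 4 or 5 days. Cold-exposed mice were housed singly and without nesting material, so housing and temperature cannot be told apart. The 6 comparisons with RT share the same 5 control mice.

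Phospholipids are remodelled in a cycle. Phospholipases remove an acyl chain and leave a lysophospholipid, and acyltransferases attach a new chain taken from acyl-CoA. MFSD2A is a sodium-dependent transporter that brings lysophosphatidylcholine from the circulation into cells, and it is best known for carrying docosahexaenoic acid across the endothelium of the brain. Cardiolipin is the signature lipid of the mitochondrial inner membrane, in which UCP1 and the respiratory chain of brown adipocytes sit. It is made from CDP-diacylglycerol by PGS1, PTPMT1 and CRLS1 in turn, and its acyl chains are then exchanged.

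Libraries held between 3846016 and 6047247 counts, so 1 count corresponded to 0.151 to 0.285 CPM, the unit of counts scaled to libraries of equal size. The kit reads the 3′ end of polyadenylated transcripts, and CPM was not divided by length, so levels are compared between mice and not between genes. All 15 libraries from RT, 6 hours and 1 day correlated best with their own group, whereas 12 of the 20 libraries from 2 to 5 days correlated best with a different duration. Each of the 10 brown adipocyte markers, Ucp1 and Adipoq among them, had counts in every group. Their summed level was 12600 to 16200 CPM in RT mice, 17100 to 23200 after 6 hours and 13100 to 22100 from 1 to 5 days. The sum did not stand for each marker. At an adjusted p below 0.05 in edgeR, 1 of the 10 was higher than in RT after 6 hours and 3 were lower. Of all genes, 21.5% were higher and 21% lower. From 1 to 5 days 1 to 3 markers were higher and 2 to 4 lower, against 16.4% to 20.2% and 14.7% to 18.6% of all genes. In bulk tissue, fewer cells of a type and less RNA per cell cannot be told apart.

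Mfsd2a lies on chromosome 4 from 122946850 to 122961188 on the minus strand of GRCm38, and none of its exons overlaps another annotated gene. The RefSeq promoter windows (GRCm38.p6) run from 250 bases before to 50 after the start, 5′ to 3′. They are shown for the 4 genes with the highest ratios to RT after 6 hours, among the 7 with enough counts for the fits. Capitals mark every match on either strand to any of 7 motifs. The full cAMP response element TGACGTCA was searched together with TGACG, the short form it contains, and the ERR element TCAAGGTCA together with AGGTCA, the nuclear receptor core it contains. The remaining motifs were the E-box CACGTG, the GC box written as GGGCGG and the TATA box written as TATAAA. The windows are chr4:122961139-122961438 (minus strand) for Mfsd2a, chr1:191717774-191718073 (plus) for Lpgat1, chr11:117986607-117986906 (plus) for Pgs1 and chr2:132846416-132846715 (plus) for Crls1.
Mfsd2a: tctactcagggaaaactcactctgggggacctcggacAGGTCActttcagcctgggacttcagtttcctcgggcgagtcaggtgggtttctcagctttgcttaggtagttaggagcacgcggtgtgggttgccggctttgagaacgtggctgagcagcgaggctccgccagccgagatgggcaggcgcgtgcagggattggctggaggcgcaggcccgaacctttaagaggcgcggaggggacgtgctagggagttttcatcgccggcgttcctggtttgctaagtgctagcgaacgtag
Lpgat1: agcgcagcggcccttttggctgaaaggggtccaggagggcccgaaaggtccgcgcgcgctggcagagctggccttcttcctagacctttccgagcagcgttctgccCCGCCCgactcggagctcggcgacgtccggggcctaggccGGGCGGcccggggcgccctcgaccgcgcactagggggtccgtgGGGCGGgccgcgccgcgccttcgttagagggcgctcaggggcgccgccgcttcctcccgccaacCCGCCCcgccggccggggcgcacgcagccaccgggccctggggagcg
Pgs1: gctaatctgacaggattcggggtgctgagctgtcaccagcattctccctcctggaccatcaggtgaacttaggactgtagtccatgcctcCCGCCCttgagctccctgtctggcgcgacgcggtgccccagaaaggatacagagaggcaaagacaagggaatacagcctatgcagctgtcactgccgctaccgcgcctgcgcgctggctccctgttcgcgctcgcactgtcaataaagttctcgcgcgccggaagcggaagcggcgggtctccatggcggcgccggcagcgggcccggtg
Crls1: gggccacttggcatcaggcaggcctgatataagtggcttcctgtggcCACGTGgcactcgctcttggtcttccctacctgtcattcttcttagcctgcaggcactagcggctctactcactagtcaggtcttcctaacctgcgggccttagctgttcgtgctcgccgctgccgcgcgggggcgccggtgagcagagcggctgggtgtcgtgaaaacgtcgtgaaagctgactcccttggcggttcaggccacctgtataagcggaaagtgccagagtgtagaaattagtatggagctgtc

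The Mfsd2a window held 1 match, an AGGTCA that began 213 bases before the start, and no match to the 6 other motifs. The Lpgat1 window held 4 GC boxes, the Pgs1 window held 1, and the Crls1 window held 1 E-box at 203 bases before the start. RefSeq gives Lpgat1 and Crls1 a second, downstream start each, and the windows shown are those of the first. The second Lpgat1 window (chr1:191718145-191718444) held 2 GC boxes, and the second Crls1 window (chr2:132847484-132847783) held 1 TGACG, 170 bases before its start. Of 32851 promoter windows of the same length, 16.3% held AGGTCA, 35.7% GGGCGG, 7.15% CACGTG, 20.8% TGACG, 1.79% TGACGTCA, 0.423% TCAAGGTCA and 13.6% TATAAA. These matches describe letters only. The GC content of the Mfsd2a window was 60.3%, against a median of 52.7% over all windows, and that of Lpgat1 was 77%.

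Mfsd2a was all but absent from RT tissue. The 5 control libraries held 2, 4, 0, 0 and 0 counts of it, or 0.381, 0.762, 0, 0 and 0 CPM. After 6 hours the 5 mice were at 55.8, 75, 76.2, 71.3 and 101 CPM, so the lowest cold-exposed mouse stood far above every control.

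The transcript then declined without returning to the RT level. After 1 day the mice were at 76.8, 33, 55.7, 40.6 and 19.6 CPM, and after 2 days at 14.8, 26.9, 48.9, 38.5 and 26.3 CPM. After 3 days they were at 12.3, 22.3, 24, 14.5 and 22.9 CPM. Each of these durations overlapped with the next, while no cold-exposed mouse at any duration came down to a control. After 4 days the values were 11.1, 12.7, 27.9, 19.4 and 15 CPM, and after 5 days 10.6, 21, 6.89, 4.9 and 30 CPM. Expressed relative to the 6-hour mean, the mean level was 59.5% on day 1, 41% on day 2, 25.3% on day 3, 22.7% on day 4 and 19.3% on day 5.

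The size of the rise over RT rests on 6 control counts in all. The ratio of summed counts per library size was 347 after 6 hours, with a 95% interval of 159 to 946 that covers counting error only. It was 211 (96.4 to 575) on day 1, 136 (62.2 to 372) on day 2 and 86.2 (39.3 to 236) on day 3. On days 4 and 5 it was 76.8 (35 to 210) and 65.4 (29.7 to 179). The fitted log2 difference from RT at 6 hours was 8.22, and it became 9.30 without RT replicate 2, which held 4 of the 6 control counts. Without that mouse the fitted log2 differences at 1, 2, 3, 4 and 5 days moved from 7.50, 6.95, 6.26, 6.1 and 5.85 to 8.58, 8.02, 7.34, 7.20 and 6.94.

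**Figure D1:**
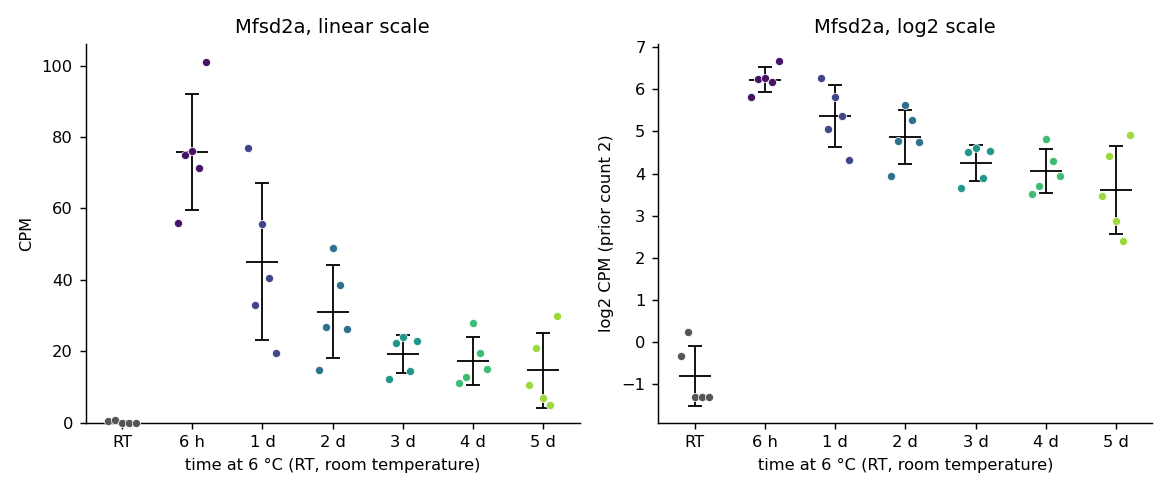
Mfsd2a in each of the 35 mice, as CPM on a linear scale (left) and as log2 CPM with a prior count of 2 (right), by time at 6 °C. Points are mice, horizontal bars are means and error bars are SD (n = 5). The RT mice sit at or near 0, the 6-hour mice between 55.8 and 101 CPM, and the 5-day mice between 4.9 and 30 CPM.

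The comparison of 5 days with 1 day used none of the mice that chose Mfsd2a, and in it Mfsd2a was lower. The mean was 14.7 ± 10.6 CPM (SD, n = 5) after 5 days and 45.1 ± 22 CPM after 1 day, a log2 fold change of -1.64 ± 0.39 (SE, adjusted p = 0.00708, edgeR quasi-likelihood test). Leaving out each mouse in turn gave log2 fold changes from -2.09 to -1.36, with adjusted p between 0.00153 and 0.0266. The 2 groups still overlapped, because 5-day replicates 2 and 5 (21 and 30 CPM) exceeded 1-day replicate 5 (19.6 CPM).

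How far mice of the same duration lay apart also varied between durations. The highest mouse was 1.81 times the lowest after 6 hours, 3.93 times after 1 day and 6.12 times after 5 days. The coefficient of variation was 21.5% at 6 hours, 48.8% on day 1, 28.1% on day 3 and 72% on day 5. The difference between these spreads was not tested.

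Markers of endothelial cells, the cells that carry MFSD2A in the brain, moved over the same days. The summed level of 8 endothelial markers (Pecam1, Cdh5 and others) was 310 to 374 CPM in RT mice, 515 to 619 after 6 hours, 616 to 716 after 1 day and 287 to 444 after 5 days. None of the 8 was at 0 in all mice of a group. After 6 hours 3 of the 8 were higher than in RT and 1 was lower, against 21.5% and 21% of all genes. After 1 day 6 of the 7 tested were higher than in RT, against 18.9% of all genes. From 1 day to 5 days 6 of 7 were lower, against 8.68% of all genes. After 5 days none of 8 was higher than in RT and 1 was lower, against 20.2% and 18.6% of all genes. Mfsd2a was then at 64.1 times its RT mean. The endothelial sums ranged from 287 to 716 CPM over all groups, and Mfsd2a from 0 to 101 CPM. Their part in the Mfsd2a time course was not tested.

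The genes with the profile most like that of Mfsd2a were ranked by Pearson r of log2 CPM over the 35 mice, among 8888 genes with a mean of at least 20 counts. They were Dio2 (r = 0.959), the deiodinase that activates thyroid hormone, Cdkn1a (0.946), an inhibitor of cyclin-dependent kinases, Gmpr (0.934), GMP reductase, Slc43a2 (0.932), an amino acid transporter, and Sdc4 (0.928), a heparan sulphate proteoglycan. These mice share their durations, so r is a description of 7 group levels as much as of 35 animals. Dio2 had a mean of 36.3 ± 30.6 CPM in RT mice, 1570 ± 68.6 after 6 hours and 341 ± 86.3 after 5 days. Gmpr differed in that its mean was higher after 1 day (4380 ± 646 CPM) than after 6 hours (3260 ± 756). Over the 30 cold-exposed mice alone, an alternative chosen after seeing the data, none of these 5 was among the first 5. Foxo1 (r = 0.89) and Neat1 (0.877) then led, and Dio2 ranked 10.

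After each duration's mean was removed, the highest r with Mfsd2a belonged to Foxo1 (0.683), a transcription factor restrained by insulin signalling. Neat1 (0.674), a nuclear long non-coding RNA, and Klf9 (0.672), a transcription factor induced by glucocorticoids and thyroid hormone, followed. Pde4d (0.668), a cAMP phosphodiesterase, and Fam126b (0.608) completed the first 5. Foxo1 had means of 81 ± 10.6 CPM in RT mice, 146 ± 29.8 after 6 hours and 47.3 ± 8.26 after 5 days, so unlike Mfsd2a it ended below its RT level. Foxo1, Neat1 and Klf9 stayed among the first 5 in the 30 cold-exposed mice, with r of 0.712, 0.649 and 0.694.

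The 8 other genes differed in timing and size, and 6 of them passed the filter on low counts in every comparison. Lpcat2 and Lpcat4 did not pass it. After 6 hours 3 of the 8 (Lpgat1, Crls1 and Pgs1) were higher than in RT and none was lower, while 21.5% of all genes tested were higher and 21% lower. After 1 day 3 were higher (Lpgat1, Pgs1 and Lpcat3) and 1 was lower (Crls1), against 18.9% and 17.8% of all genes. After 2 days 4 were higher, with Lpcat1 added, and none was lower, against 16.4% and 14.7%. After 3 days 5 were higher (Lpgat1, Pgs1, Lpcat3, Lpcat1 and Ptpmt1), against 18.3% higher and 15.5% lower among all genes. After 4 days the 4 higher were Lpgat1, Pgs1, Lpcat3 and Ptpmt1, against 19.4% and 18.6%, and after 5 days the 4 had the same names, against 20.2% and 18.6%.

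**Figure D2:**
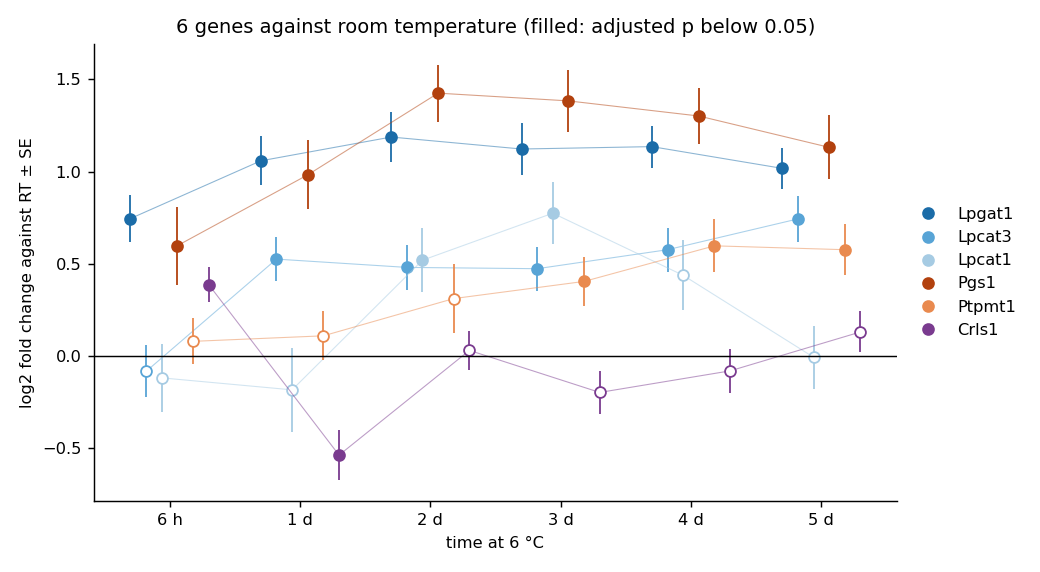
Fitted log2 fold change of 6 genes in CPM against RT at each time at 6 °C, with SE bars (5 mice against 5, edgeR). Filled points passed an adjusted p of 0.05. Lpgat1 and Pgs1 are filled at every duration, Lpcat3 from 1 day on, and Crls1 is above 0 after 6 hours and below 0 after 1 day.

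Among the acyltransferases, Lpgat1, named for acylating lysophosphatidylglycerol and also active on lysophosphatidylethanolamine, was higher at every duration. It lies on chromosome 1 from 191717834 to 191784255 on the plus strand, with no overlapping exon of another gene. RT mice were at 47.8, 50.3, 68.3, 48.7 and 56.4 CPM, and 6-hour mice at 89.7, 92.7, 104, 108 and 70.1 CPM. The groups did not overlap, although the lowest 6-hour mouse (70.1 CPM) stood close to the highest control (68.3 CPM). The log2 fold change was 0.75 ± 0.13 (SE, adjusted p = 0.000128, edgeR).

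From 1 day on the mean of Lpgat1 lay between 112 and 125 CPM, against 54.3 ± 8.51 in RT. The log2 fold changes were 1.06 ± 0.13 on day 1 (adjusted p = 1.14e-05), 1.19 ± 0.14 on day 2 (9.79e-06) and 1.02 ± 0.11 on day 5 (1.43e-06). None of the 25 mice from 1 to 5 days overlapped with a control, since their lowest value was 86.5 CPM. The step from 6 hours to 1 day (log2 0.31 ± 0.13, adjusted p = 0.125) missed the threshold, and it passed without 1-day replicate 4 (0.39, adjusted p = 0.0393). From 1 day to 5 days the log2 difference was -0.04 ± 0.12 (adjusted p = 0.84).

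Lpcat3, which places polyunsaturated chains on lysophosphatidylcholine in the endoplasmic reticulum, was later. RT mice were at 51.3, 41.6, 35.8, 38.6 and 33.4 CPM, 6-hour mice at 46.1, 32.5, 47.2, 35.9 and 32.1 CPM, and 1-day mice at 56.6, 57.9, 64, 58.4 and 55.5 CPM. The first 2 groups lay on top of each other, and every 1-day mouse exceeded every RT and 6-hour mouse. The log2 difference from RT was -0.08 ± 0.14 after 6 hours (adjusted p = 0.656) and 0.53 ± 0.12 after 1 day (adjusted p = 0.00233). Between 6 hours and 1 day, a comparison in which 1 of the 8 genes was higher against 9.19% of all genes, Lpcat3 rose by log2 0.60 ± 0.13 (adjusted p = 0.00304).

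The level of Lpcat3 was kept to the end of the time course. Its mean was 56.6 ± 5.5 CPM on day 2, 56.2 ± 3.66 on day 3 and 60.9 ± 6.89 on day 4. After 5 days the mice were at 65.5, 79.4, 68.1, 70.5 and 58.5 CPM, all above the highest control. The log2 fold change was then 0.74 ± 0.12 (adjusted p = 0.000127), and that from 1 day to 5 days was 0.22 ± 0.11 (adjusted p = 0.162). Lpcat3 lies on chromosome 6 from 124663027 to 124704418 and shares 334 exonic bases with Emg1 on the opposite strand. The strand setting of the counting is not given in the sources used here, so reads of that stretch cannot be assigned with certainty. With library size as the only scaling, the calls after 1 day (log2 0.31, adjusted p = 0.0563) and 2 days (0.26, adjusted p = 0.147) were lost.

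Lpcat1, which places saturated chains on lysophosphatidylcholine and is best known from lung surfactant, was higher in the middle of the time course. RT mice were at 17.2, 12.2, 14.6, 18.9 and 12.6 CPM. After 3 days the mice were at 35.2, 22.3, 24.5, 20.1 and 28.8 CPM, all above the highest control, with a log2 fold change of 0.77 ± 0.17 (adjusted p = 0.00203). After 5 days they were at 18.6, 14.3, 18.7, 12.1 and 12.9 CPM, within the range of the controls but for 1 mouse just under it, with a log2 difference of -0.01 ± 0.17 (adjusted p = 0.979). Lpcat1 lies on chromosome 13 from 73467197 to 73516422, with no overlapping exon.

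The neighbouring durations of Lpcat1 were less certain. After 2 days the log2 fold change was 0.52 ± 0.18 (adjusted p = 0.0333) and the groups overlapped. That call was lost without RT replicate 2 (0.44, adjusted p = 0.0928), RT replicate 3 (0.50, 0.0698), RT replicate 5 (0.46, 0.0927), 2-day replicate 1 (0.37, 0.105) or 2-day replicate 2 (0.49, 0.0692), in 1 fit of all 7 groups (adjusted p = 0.065) and with library size only (0.32, 0.247). After 4 days the log2 difference was 0.44 ± 0.19 (adjusted p = 0.079), and it passed without 4-day replicate 5 (0.54, adjusted p = 0.031) or without the filter on low counts (0.47, 0.0183). The summed level of 10 macrophage markers, none at 0 in all mice of a group, was 86.5 to 198 CPM in RT mice, 103 to 185 after 2 days, 153 to 335 after 3 days, 117 to 294 after 4 days and 127 to 246 after 5 days. The median of this sum was highest on day 4 (260 CPM, against 195 on day 3), and its highest single value (335 CPM) was on day 3. Of 8 tested, 1 was higher than in RT after 2 days, against 16.4% of all genes. Of 9 tested this held for 4 on day 3, 4 on day 4 and 3 on day 5, against 18.3%, 19.4% and 20.2% of all genes. Their part in the level of Lpcat1 was not tested.

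Lpcat2, which also makes platelet-activating factor in inflammatory cells, was near the detection limit. It lies on chromosome 8 from 92855339 to 92919279. Its libraries held 0 to 8 counts, with 13 counts over the 5 RT mice, 2 over the 1-day mice and 13 over the 5-day mice. Means were 0.45 ± 0.436 CPM in RT, 0.087 ± 0.122 after 1 day and 0.554 ± 0.586 after 5 days. When log2 CPM was compared by an exact permutation test (two-sided) over every split of 5 against 5 mice, the smallest of its 8 p-values was 0.0952 (5 days against 1 day, adjusted p = 0.824 over 16 exact tests). A difference was not detectable at this depth. Lpcat4, which acts on lysophosphatidylethanolamine and lies on chromosome 2 from 112239468 to 112247111, had 1 count in a 6-hour mouse and 0 in the 34 other libraries. There, 3 counts would correspond to at most 0.856 CPM.

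**Figure D3:**
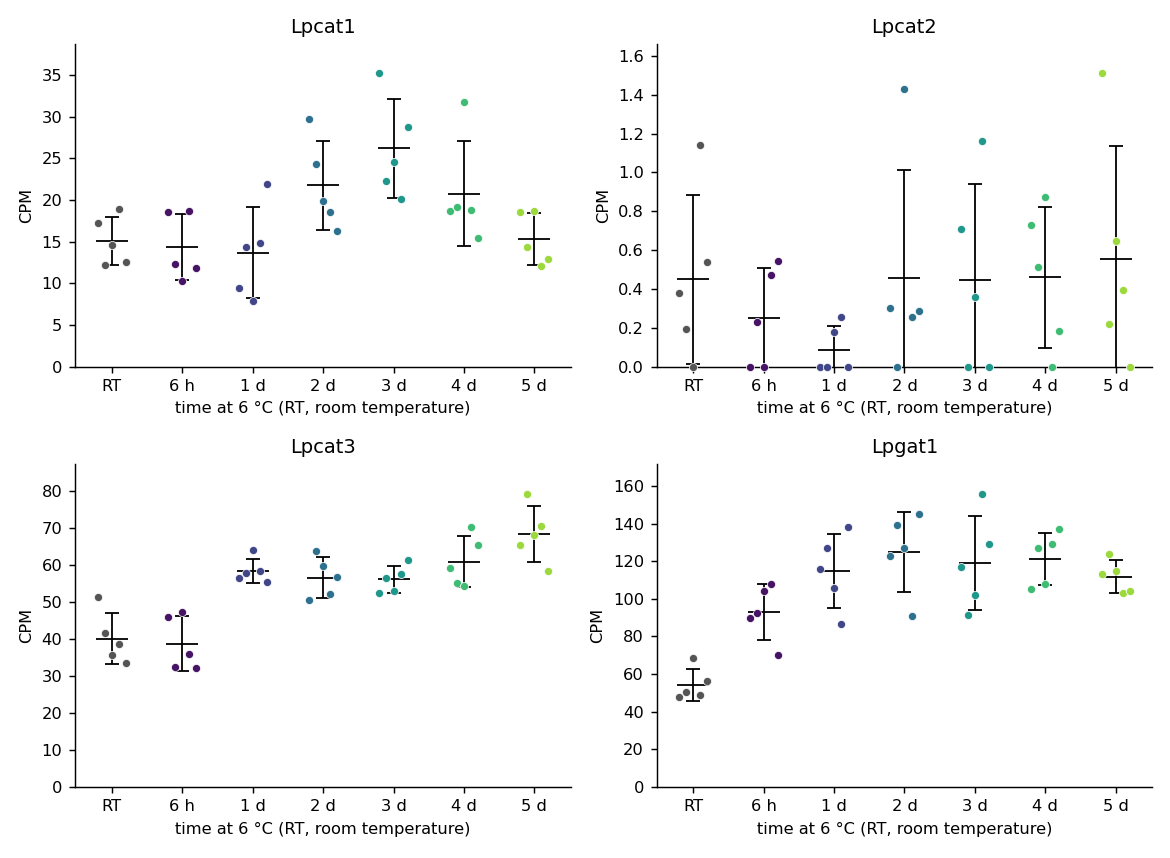
CPM of Lpcat1, Lpcat2, Lpcat3 and Lpgat1 in each mouse by time at 6 °C, with a separate vertical axis per gene. Points are mice, horizontal bars are means and error bars are SD (n = 5), cut at 0. Lpgat1 separates from RT after 6 hours and Lpcat3 after 1 day, Lpcat1 is highest after 3 days, and Lpcat2 stays below 1.6 CPM.

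The 3 enzymes of cardiolipin synthesis followed 3 different courses. Pgs1, the phosphatidylglycerophosphate synthase that commits CDP-diacylglycerol to this pathway, had means of 7.26 ± 1.31 CPM in RT, 11.2 ± 3.67 after 6 hours, 14.6 ± 3.4 after 1 day and 19.6 ± 1.44 after 2 days. RT mice were at 8.77, 6.1, 7.64, 5.71 and 8.08 CPM, and 2-day mice at 21.3, 20.1, 19.4, 20 and 17.4 CPM. Every 2-day mouse was thus far above every control, with a log2 fold change of 1.43 ± 0.15 (adjusted p = 5.89e-06). Among the 6 genes tested against RT, the fitted fold change of Pgs1 was the largest from 2 days to 5 days, and that of Lpgat1 after 6 hours and 1 day.

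Pgs1 stayed high afterwards, at log2 1.38 ± 0.17 on day 3 (adjusted p = 1.04e-05), 1.30 ± 0.15 on day 4 (6.24e-06) and 1.13 ± 0.17 on day 5 (5.27e-05). The 5-day mice were at 17.3, 18.1, 13.8, 18.2 and 13.5 CPM, again all above the controls. The 6-hour call was the weakest, since the mice at 9.65, 10.5, 17.4, 7.79 and 10.6 CPM overlapped with RT. Its log2 fold change of 0.60 ± 0.21 (adjusted p = 0.0306) fell short without RT replicate 2 (0.55, adjusted p = 0.0627), RT replicate 4 (0.52, 0.0797) or 6-hour replicate 3 (0.40, 0.111), and with library size only (0.41, 0.136). Pgs1 lies on chromosome 11 from 117986292 to 118024011 and shares 93 exonic bases with Dnah17 on the opposite strand.

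Ptpmt1, the phosphatase that turns phosphatidylglycerophosphate into phosphatidylglycerol, was slower and its change smaller. RT mice were at 46.5, 33.4, 48, 35.2 and 33.6 CPM, and 6-hour mice at 40.7, 41.3, 48.5, 44.9 and 36.4 CPM. These groups overlapped almost fully (log2 0.08 ± 0.13, adjusted p = 0.639). After 4 days the mice were at 57.1, 50.5, 48.6, 69 and 77.2 CPM, all above the highest control, with a log2 fold change of 0.60 ± 0.14 (adjusted p = 0.00356). After 5 days they were at 45.6, 57.4, 56.6, 72.9 and 64.7 CPM, with a log2 fold change of 0.58 ± 0.14 (adjusted p = 0.00308), which was lost with library size only (0.34, adjusted p = 0.0523).

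The course of Ptpmt1 between these points depended on single mice. After 2 days the mice were at 26.2, 55.7, 51.6, 53.6 and 60.5 CPM, and the log2 difference was 0.31 ± 0.19 (adjusted p = 0.23), or 0.47 (adjusted p = 0.0116) without the low replicate 1. After 3 days it was 0.40 ± 0.13 (adjusted p = 0.0276). That call was lost without RT replicate 2 (0.35, adjusted p = 0.0719), RT replicate 4 (0.36, 0.0751), RT replicate 5 (0.35, 0.0726), 3-day replicate 2 (0.36, 0.0631) or 3-day replicate 4 (0.35, 0.0686), in 1 fit of all 7 groups (adjusted p = 0.061) and with library size only (adjusted p = 0.14). Ptpmt1 lies on chromosome 2 from 90908716 to 90918258 on the minus strand, annotated there as a processed transcript. It shares 1657 exonic bases with Kbtbd4 on the opposite strand, so its counts could include reads of that gene.

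Crls1, the cardiolipin synthase that joins phosphatidylglycerol and CDP-diacylglycerol, was the only one of the 8 called in both directions. RT mice were at 111, 133, 110, 112 and 128 CPM, 6-hour mice at 166, 159, 141, 176 and 152 CPM, and 1-day mice at 88.9, 93, 88.1, 53.8 and 90.7 CPM. The 3 groups did not overlap, with 6 hours above and 1 day below RT. The log2 fold change was 0.39 ± 0.10 after 6 hours (adjusted p = 0.00384) and -0.54 ± 0.14 after 1 day (adjusted p = 0.00507), or -0.41 without the lowest 1-day mouse. Between 6 hours and 1 day Crls1 fell by 0.93 on the log2 scale (SE 0.13, adjusted p = 8.7e-05), and 1 of the 8 genes was lower in that comparison, against 7.75% of all genes. With library size as the only scaling, the 6-hour call was lost (log2 0.20, adjusted p = 0.141).

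After 2 days Crls1 overlapped with RT again, at 108, 118, 127, 132 and 128 CPM (log2 0.03 ± 0.11, adjusted p = 0.859). It did not pass the threshold against RT at 3, 4 or 5 days, with log2 differences of -0.20 ± 0.12, -0.08 ± 0.12 and 0.13 ± 0.11. After 3 days it was called lower without 3-day replicate 5 (-0.31, adjusted p = 0.038) and with library size only (-0.35, adjusted p = 0.0201). The 5-day mice were at 112, 132, 155, 143 and 120 CPM, and all exceeded the 1-day mice. Crls1 lies on chromosome 2 from 132846666 to 132866785 and shares 2 exonic bases with an antisense gene.

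**Figure D4:**
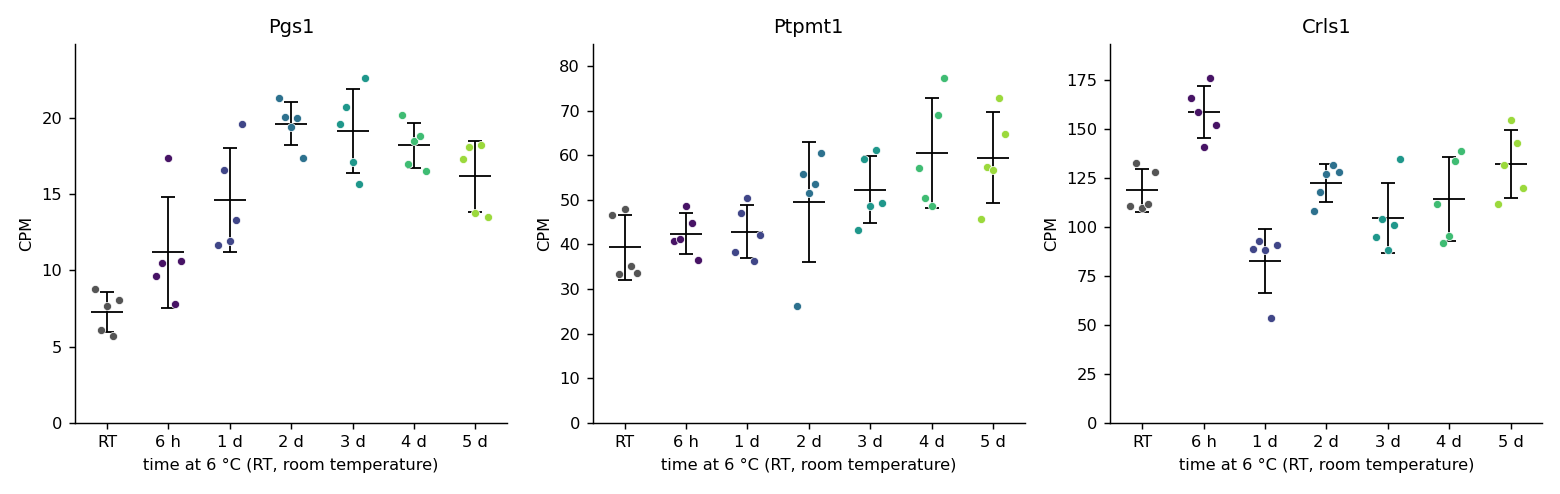
CPM of Pgs1, Ptpmt1 and Crls1 in each mouse by time at 6 °C, with a separate vertical axis per gene that starts at 0. Points are mice, horizontal bars are means and error bars are SD (n = 5). Pgs1 is above every RT mouse from 1 day on, Ptpmt1 is highest after 4 and 5 days, and Crls1 is highest after 6 hours and lowest after 1 day.

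Between 1 day and 5 days, where Mfsd2a could be tested too, 2 of the 9 genes were higher (Crls1 and Ptpmt1) and 1 was lower (Mfsd2a), against 10.7% of all genes higher and 8.68% lower. Crls1 rose by log2 0.67 ± 0.14 (adjusted p = 0.00263). Ptpmt1 rose by log2 0.47 ± 0.13 (adjusted p = 0.0205), and the call was lost without 1-day replicate 1 (0.43, adjusted p = 0.0579), 5-day replicate 4 (0.39, 0.0634) or 5-day replicate 5 (0.43, 0.0516). Lpcat1, Lpcat3, Lpgat1 and Pgs1 did not pass the threshold. Mouse-to-mouse variation within durations was compared over the 21 pairs of the 7 genes in the fits. In this description r of log2 CPM after removal of the duration means (35 mice) ran from -0.476 for Lpcat1 and Ptpmt1 to 0.433 for Lpcat3 and Ptpmt1. In its group, 2-day replicate 1 had the highest Lpcat1 (29.7 CPM) and the lowest Ptpmt1 (26.2 CPM) and Lpcat3 (50.5 CPM). These r were not recomputed without that mouse.

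Other genes of these pathways were taken from 4 lists. The first held 18 further acyltransferases, transporters and acyl-CoA synthetases, of which 15 were tested in each comparison. After 6 hours 7 were higher and 3 lower, while 21.5% of all genes were higher and 21% lower, and their median log2 fold change was 0.40 (-0.03 over all genes). From 1 to 4 days 9 or 10 were higher and 1 was lower, against 16.4% to 19.4% and 14.7% to 18.6% of all genes. On day 5, 11 were higher and 2 lower, against 20.2% and 18.6% of all genes, and the median was 0.48 (-0.02 over all genes). Lclat1, an acyltransferase that acts on lysocardiolipin and other lysophospholipids, ranged from 6.77 to 13.9 CPM in RT mice and from 51.1 to 89.4 after 6 hours (log2 2.64 ± 0.19, adjusted p = 7.96e-09). Its mean then went down to 35.8 ± 7.24 CPM after 1 day and 16.1 ± 2.7 after 5 days, and it remained higher than in RT (0.66 ± 0.19, adjusted p = 0.00883).

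Acsl5, which makes acyl-CoA, went the other way in time, with means of 49.7 ± 22.3 CPM in RT, 147 ± 62.5 after 6 hours and 640 ± 145 after 5 days. The log2 fold change of Acsl5 was 1.54 ± 0.28 at 6 hours (adjusted p = 0.000248) and 3.67 ± 0.25 on day 5 (adjusted p = 5.06e-09). Agpat2, an acyltransferase of phosphatidic acid synthesis, was not called after 6 hours and was higher from 1 day on (1.71 ± 0.19 after 5 days, adjusted p = 1.85e-06). Flvcr1, a choline transporter, was lower after 6 hours (-1.36 ± 0.18) and after 5 days (-1.33 ± 0.20), and Slc44a2, another choline transporter, was lower after 6 hours (-0.53 ± 0.17, adjusted p = 0.0197) and 5 days (-0.52 ± 0.20, adjusted p = 0.0485) and not called in between. Acsl3, an acyl-CoA synthetase, was called in both directions. It was lower after 6 hours (-0.76 ± 0.13, adjusted p = 0.000196), did not pass the threshold after 1 day (0.37 ± 0.16, adjusted p = 0.0755) and was higher from 2 days (1.04 ± 0.12, adjusted p = 8.71e-06) to 5 days (1.15 ± 0.20, adjusted p = 0.000168).

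The second list held 16 other cardiolipin genes, of which 15 were tested. At 6 hours 4 were higher and 3 lower, shares near the 21.5% and 21% of all genes. On day 1 this was 6 against 2 (18.9% and 17.8% of all genes). From 2 to 4 days it was 3 or 4 against 3 (16.4% to 19.4% and 14.7% to 18.6%), and on day 5 it was 4 against 2 (20.2% and 18.6%). The median log2 fold change of the list ran from 0.12 after 6 hours to 0.31 after 1 day and was 0.24 on day 5, where that of all genes was -0.03, -0.02 and -0.02. Taz (tafazzin), the transacylase that remodels cardiolipin in the mitochondrion, was lower at every duration but 1 day. Its RT mice ranged from 33.9 to 42.1 CPM, and its 6-hour mice from 14.9 to 29.3 CPM (log2 -0.86 ± 0.15, adjusted p = 0.000134). After 1 day it ranged from 20.3 to 34.4 CPM, overlapped with RT and missed the threshold (-0.36 ± 0.14, adjusted p = 0.0511). After 5 days it ranged from 22.7 to 29.1 CPM, below every control (-0.57 ± 0.11, adjusted p = 0.000632). Pld6, a mitochondrial phospholipase that cleaves cardiolipin, was higher after 6 hours (1.26 ± 0.24, adjusted p = 0.000368) and 1 day (0.97 ± 0.22, adjusted p = 0.00238) and not called later. Dnajc19 was lower after 6 hours (-0.34 ± 0.13, adjusted p = 0.048) and after 1, 2 and 4 days, and not called after 3 or 5 days. Phb, which encodes prohibitin, was higher at every duration (1.23 ± 0.12 after 5 days, adjusted p = 6.21e-07). Abhd18 was lower from 2 days on (-0.63 ± 0.20 after 5 days, adjusted p = 0.0173).

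**Figure D5:**
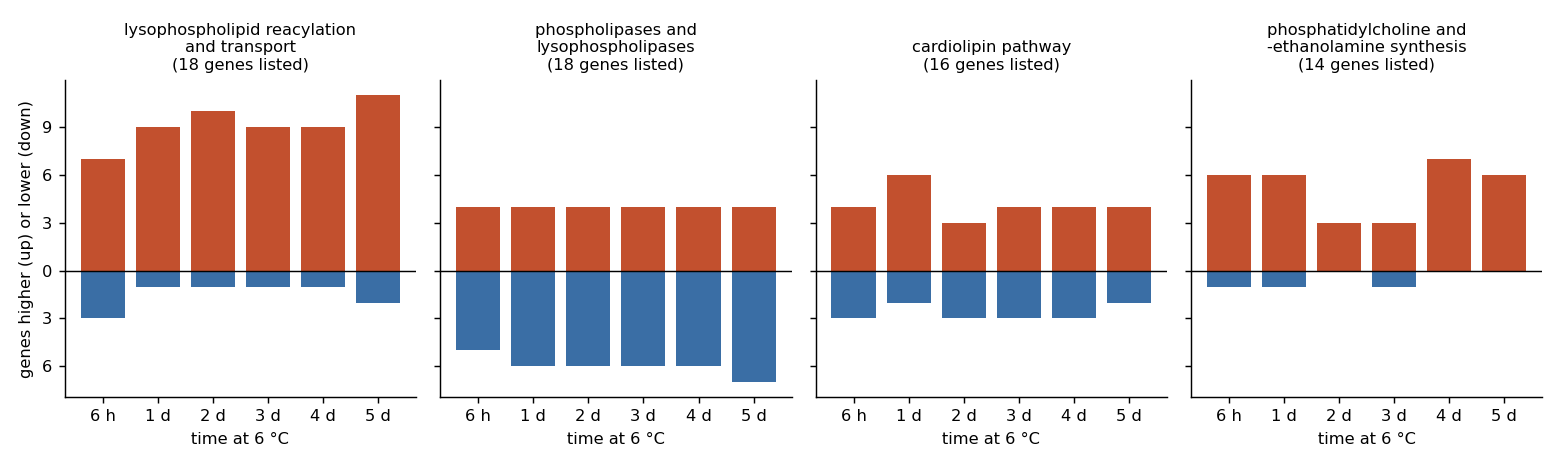
Number of genes of 4 pathway lists called higher (above 0) or lower (below 0) than in RT at each time at 6 °C, at an adjusted p below 0.05 in edgeR. Lclat1 is in the list of lysophospholipid reacylation and transport and in the cardiolipin list. The first list has 7 to 11 genes higher, and the phospholipase list has 4 called higher and 5 to 7 lower at each duration, not the same 4 throughout. Of all genes tested, 16.4% to 21.5% were higher and 14.7% to 21% lower.

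Among 18 phospholipases and lysophospholipases, 14 or 15 were tested, and 4 were called higher and 5 to 7 lower at each duration. The 4 were Ddhd2, Gdpd1, Lypla2 and Pla2g12a after 6 hours, and Ddhd2, Gde1, Pla2g12a and Pnpla8 from 1 day on. Beside these counts, 16.4% to 21.5% of all genes were higher and 14.7% to 21% lower. Enpp2, which encodes autotaxin and turns lysophosphatidylcholine into lysophosphatidic acid, ranged from 153 to 193 CPM in RT mice and from 79.4 to 101 after 6 hours. After 5 days it ranged from 47.6 to 63.9 CPM (log2 -0.97 ± 0.10 and -1.59 ± 0.11, adjusted p = 3.66e-07 and 4.79e-09). Pla2g16, the adipose phospholipase A2, had a log2 difference of 0.003 ± 0.106 after 6 hours (adjusted p = 0.985) and was lower from 1 day on (-1.38 ± 0.11 after 5 days, adjusted p = 5.46e-08). Ddhd1, a phospholipase A1, was lower at every duration (-1.56 ± 0.16 after 6 hours). After 6 hours Pla2g12a, a secreted phospholipase A2, and Gdpd1, a lysophospholipase D, were higher (1.25 ± 0.11 and 1.62 ± 0.31). After 5 days Ddhd2 (1.16 ± 0.18) and Gde1 (1.07 ± 0.13) were higher.

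Of 14 genes that make phosphatidylcholine, phosphatidylethanolamine and phosphatidylserine, 12 were tested. After 6 hours and after 1 day 6 were higher and 1 lower, against 21.5% and 21% of all genes at 6 hours and 18.9% and 17.8% after 1 day. After 2 and 3 days 3 were higher (16.4% and 18.3% of all genes), after 4 days 7 (19.4%) and after 5 days 6 (20.2%). At most 1 was lower at these durations, against 14.7% to 18.6% of all genes. Pcyt2, the rate-limiting enzyme of phosphatidylethanolamine synthesis, was at 10.8 ± 2.5 CPM in RT, 20 ± 4.92 after 6 hours and 30.6 ± 4.08 after 5 days (log2 0.86 ± 0.18 and 1.49 ± 0.16, adjusted p = 0.00098 and 9.04e-07). Chka, a choline kinase, was called higher after 6 hours (0.84 ± 0.14) and at no later duration. Ptdss2, a phosphatidylserine synthase, was not called after 6 hours and was higher from 1 day (0.74 ± 0.14) to 5 days (1.07 ± 0.12). Chpt1, a cholinephosphotransferase, was lower after 6 hours (-0.28 ± 0.09, adjusted p = 0.0203) and 1 day (-0.33 ± 0.11, adjusted p = 0.0215), and higher after 4 days (0.34 ± 0.09, adjusted p = 0.00961) and 5 days (0.49 ± 0.10, adjusted p = 0.0011). Mboat1, Mboat2, Mfsd2b, Pla2g4a, Enpp6, Nme4, Pcyt1b and Etnk2 had too few counts for any of the fits.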

How the data were processed

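RNA from the iBAT of 35 mice was turned into QuantSeq FWD libraries, which read transcript ends, and run on an Illumina NovaSeq. Per the labels, reads were aligned with STAR 2.6.1d and counted with HTSeq 0.11.2 on GRCm38. The authors deposited raw counts per gene, 1 table with 35 columns, each matched to a mouse by its label. Groups came from the labels. Libraries held 3846016 to 6047247 counts, of which mitochondrially encoded genes took 33.6% to 46.2%. Intervals and floors cover counting error only.

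Each comparison was fitted on its own 5 against 5 mice with edgeR 4.0.16 in R 4.3.3 (TMM, filterByExpr, quasi-likelihood test), with p-values adjusted by Benjamini-Hochberg over all genes tested and called below 0.05. SE is the log2 fold change divided by the square root of F. CPM used TMM factors over all 35 libraries, and log2 CPM a prior count of 2. Genes outside the filter were tested by exact permutation (Python 3.11.15). Alternatives used DESeq2 1.42.0, other scalings and filters, a replicate block, 1 fit of all groups and leaving out each mouse. The fits were tested on simulated data.

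The members and the lists were chosen with earlier results of these data known. Named from the pathway lists were, after 6 hours and 5 days, the 2 called genes per direction with the largest change and a mean of at least 10 counts. Gene positions are those of GENCODE vM21 on GRCm38.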

Additional observations from a re-analysis of the deposited data

Results flagged for a closer look

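Of 49 groups of 5 mice looked at on the log2 CPM scale for a single distant mouse, 2 had one, and chance alone gives about 1 in 20. Crls1 was lowest in 1-day replicate 4, at 53.8 CPM against 88.1 for the nearest mouse of its group (gap over range of log2 CPM 0.901, critical value 0.71). Ptpmt1 was lowest in 2-day replicate 1, at 26.2 CPM against 51.6 for the nearest (gap over range of log2 CPM 0.81). Both libraries were also the least typical of their groups over many genes. The mean r of log2 CPM with group mates was 0.9534 for 1-day replicate 4, which had the fewest counts of all libraries (3846016). It was 0.9437 for 2-day replicate 1, the lowest of all 35, and that library correlated best with the 3-day group. The part of this in the 2 low values was not tested. Differences between durations in the cold that passed edgeR's test were found for Lpcat3 (log2 0.60) and Crls1 (-0.93) between 6 hours and 1 day. Between 1 day and 5 days they were found for Crls1 (0.67), Ptpmt1 (0.47) and Mfsd2a (-1.64).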

How the results depend on the processing

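Of 392 log2 fold changes of the 7 genes in the fits recomputed under another setting, 373 kept their direction and, where tested, their side of the threshold. Of 560 recomputed without 1 mouse, 16 lost a call, 4 gained one and 18 changed sign, while 6 (Mfsd2a against RT without RT replicate 2) kept their direction with larger values. Library size as the only scaling moved the median of all genes by -0.13 to -0.23 on the log2 scale in the comparisons with RT. Genes then called higher and lower numbered 1342 and 3399 after 6 hours, 1140 and 3218 after 1 day, 931 and 2776 after 2 days and 1194 and 3347 after 5 days. The share of called genes that were higher changed from 50.6% to 28.3% after 6 hours, 51.4% to 26.2% after 1 day, 52.8% to 25.1% after 2 days, 54.2% to 35.5% after 3 days, 51% to 35% after 4 days and 52% to 26.3% after 5 days. Of the 8 genes besides Mfsd2a, 1 was then higher after 6 hours, 2 after 2 days, and 1 was lower after 3 days. Under it the log2 difference changed sign for Ptpmt1 after 6 hours (-0.11), after 1 day (-0.12) and from 6 hours to 1 day (-0.005), and for Crls1 after 2 days (-0.21) and 5 days (-0.11). Lpcat1 after 5 days was 0.006 with DESeq2 and 0.025 without the filter on low counts. Leaving out a mouse gave 0 to 1 of the 8 genes lower after 3 days, 1 to 2 higher from 6 hours to 1 day, 1 to 2 of the 9 higher from 1 day to 5 days, and 589 to 883 of all genes lower from 1 day to 5 days (589 without 5-day replicate 4). It changed the sign of log2 differences near 0 that were not called: Lpcat3 after 6 hours (-0.15 to 0.023), Crls1 after 2 days (-0.007 to 0.068) and 4 days (-0.14 to 0.01), and Lpcat1 after 5 days (-0.086 to 0.086). The same held from 6 hours to 1 day for Lpcat1 (-0.31 to 0.077) and Ptpmt1 (-0.049 to 0.073), and from 1 day to 5 days for Lpgat1 (-0.12 to 0.031). The cause of these changes was not tested. Of the 5 genes most like Mfsd2a over all mice, 3 stayed among the first 5 with Spearman's rho, 3 with a prior count of 0.5 and 0 in the 30 cold-exposed mice. Of the 5 within durations, 2 stayed with a prior count of 0.5 and 3 in the cold-exposed mice.

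Same-numbered replicates did not deviate together (4 of 40 pairs with r above 0.1, 10 under -0.1, own number the best match in 7). These values show no pairing by number, and they cannot tell what the numbers stand for. With a replicate block, Ptpmt1 after 3 days missed the threshold (log2 0.41, adjusted p = 0.0531) and no other call of the 9 genes changed.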
